A study of Mus musculus with 4 samples.

Results

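Macrophages are the resident phagocytes of the peritoneal cavity, and 10 genes that mark or equip them were followed here in Dalton's lymphoma ascites (DLA) cells from irradiated and unirradiated mice. The genes were Mrc1, Adgre1, Csf1r, Cd68, Cd14, Lyz2, Timd4, Gata6, Clec4e and Marco, taken by symbol, and each was measured by 1 probe set, which gave 10 of the 35556 probe sets and 10 of the 19938 genes tested. The DLA tumour is passed from mouse to mouse and grows in suspension in the peritoneal fluid. All mice were male Swiss animals of 4 to 5 months that carried the tumour in the peritoneal cavity. The irradiated group received 2 Gy of electron radiation to the whole body on day 8 after transplantation, the control group received none, and RNA was taken from the harvested cells 48 h later. Each sample was hybridised to its own one-colour array, 4 arrays with 2 per group, labelled biological replicates 1 and 2. The labels do not say whether a sample came from 1 mouse or from a pool, nor whether host cells were removed from the ascites.

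Monocytes and embryonic precursors become macrophages under the growth factors CSF1 and IL-34, which act through the receptor CSF1R. Macrophage formation also depends on the transcription factor PU.1. In the peritoneal cavity the large resident macrophages depend on the transcription factor GATA6 and carry F4/80 (Adgre1) and the phosphatidylserine receptor TIM-4 (Timd4), while smaller macrophages derive from blood monocytes. Macrophages bind microbes and debris with CD14, MARCO, the mannose receptor CD206 (Mrc1) and Mincle (Clec4e), and digest them with lysosomal proteins such as lysozyme M (Lyz2).

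Promoter sequence was read for the members with the largest difference in each direction, Mrc1 and Clec4e, and for Lyz2 beside its neighbouring copy Lyz1. Promoter windows do not show whether the copies share array signal, because probes bind transcript sequence, which was not compared. The RefSeq promoter table (GRCm38.p6) held 6 of the 10 members, and Adgre1, Csf1r, Cd14 and Gata6 were not matched. The 250 bases before each start are given 5′ to 3′ on the strand of the gene, and capitals mark matches on either strand to AGGAAGT or GAGGAA, cores of PU.1 sites, or to TTGCNNAA, a C/EBP site.
Mrc1, chr2:14229164-14229413, plus strand: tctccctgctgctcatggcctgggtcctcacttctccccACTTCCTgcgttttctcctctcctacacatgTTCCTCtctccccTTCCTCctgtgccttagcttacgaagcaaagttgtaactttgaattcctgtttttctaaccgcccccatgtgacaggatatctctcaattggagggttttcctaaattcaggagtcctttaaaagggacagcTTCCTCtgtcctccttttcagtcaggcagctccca
Clec4e, chr6:123289872-123290121, minus strand: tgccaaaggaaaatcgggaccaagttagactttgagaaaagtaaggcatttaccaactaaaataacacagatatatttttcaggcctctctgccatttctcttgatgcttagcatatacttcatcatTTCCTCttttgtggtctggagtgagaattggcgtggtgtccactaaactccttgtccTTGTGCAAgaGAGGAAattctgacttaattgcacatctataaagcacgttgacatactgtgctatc
Lyz2, chr10:117282273-117282522, minus strand: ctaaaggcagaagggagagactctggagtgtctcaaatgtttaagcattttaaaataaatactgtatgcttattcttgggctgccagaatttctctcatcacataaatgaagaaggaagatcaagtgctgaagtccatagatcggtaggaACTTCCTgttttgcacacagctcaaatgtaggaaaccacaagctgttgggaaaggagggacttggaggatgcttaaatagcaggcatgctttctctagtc
Lyz1, chr10:117292869-117293118, minus strand: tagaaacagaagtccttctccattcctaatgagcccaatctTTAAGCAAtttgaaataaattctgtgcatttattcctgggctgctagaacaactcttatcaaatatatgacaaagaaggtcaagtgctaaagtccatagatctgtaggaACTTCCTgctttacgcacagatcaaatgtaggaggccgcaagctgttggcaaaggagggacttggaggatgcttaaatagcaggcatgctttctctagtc

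AGGAAGT occurred once in each of the Mrc1, Lyz2 and Lyz1 windows and not in that of Clec4e, and GAGGAA occurred 3 times in Mrc1 and 2 times in Clec4e. Clec4e and Lyz1 each held 1 match to TTGCNNAA. Of 32851 promoter windows of 250 bases in the table, 7.69% held AGGAAGT, 23.3% GAGGAA and 9.56% TTGCNNAA on either strand, so each match is a description of these letters and not evidence of a bound site. AGGAAGT and GAGGAA share the bases AGGAA, and no overlapping matches occurred in the windows shown. The Lyz2 and Lyz1 windows, set base against base without gaps, were identical at 152 of 250 positions, at 92 of the last 100, and at all of the last 50.

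Most of the macrophage markers lay below the median intensity, where 9961 of the 19938 genes lie. Only Adgre1 lay below the 25th percentile. Adgre1, the F4/80 antigen, measured 4.27 and 4.17 in control and 4.31 and 4.14 in irradiated samples (log2 probe set intensity), and its mean stood at the 8.48th percentile of the tested genes. Of the 10 members, 7 had a mean below the median of all tested genes, 6.68. Cd68, Cd14 and Lyz2 lay above it, and of these Cd68 is a lysosomal glycoprotein also found in other cell types. The brightness of a probe set depends on its probes as well as on the transcript, so a low value is not proof of absence.

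The labels call the tumour a lymphoma. Of 12 measured T cell markers 11 had a mean below the median of all genes, as had 11 of 11 B cell markers, and Ptprc, the leukocyte antigen CD45, measured between 5.49 and 5.64 on the 4 arrays. These positions depend on the probes too and do not show which cells were present. Across the 19938 genes the control arrays differed from each other with an SD of 0.167 and the irradiated arrays with an SD of 0.362, and irradiated replicate 2 stood farther from both controls (SDs of 0.387 and 0.379) than irradiated replicate 1 did (0.260 and 0.264). The array medians lay between 6.43 and 6.46.

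**Figure D1:**
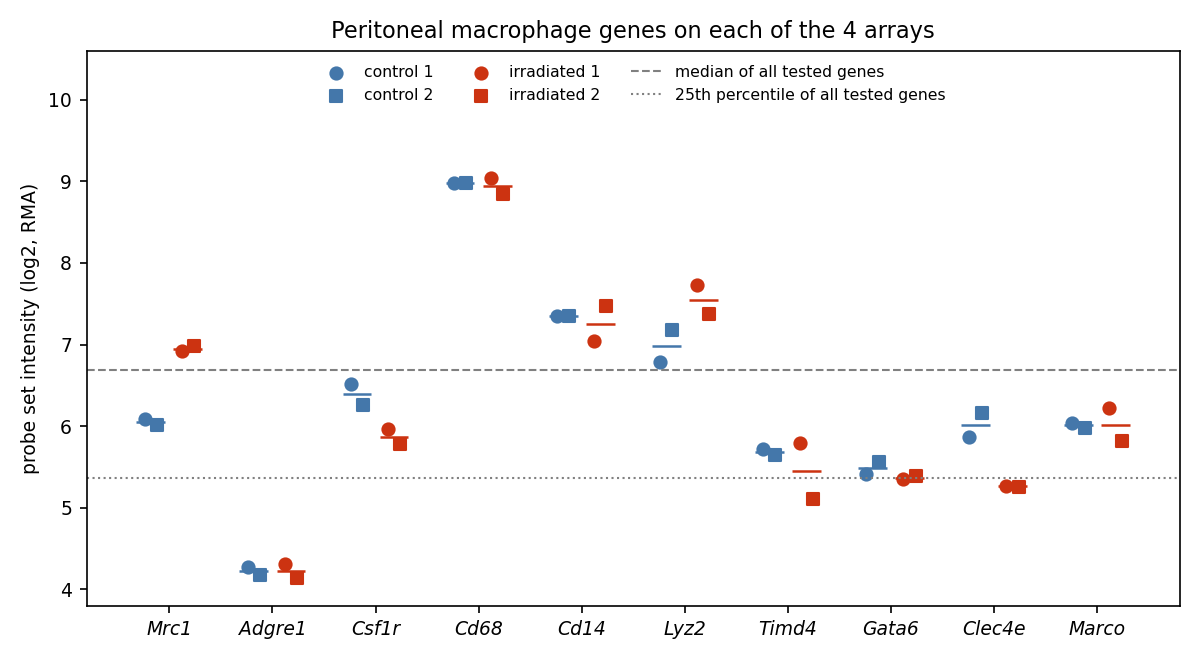
Log2 RMA intensity of the 10 members on each array, with blue points for the 2 control and red points for the 2 irradiated samples, short lines at the group means, and grey lines at the median (6.68) and 25th percentile (5.36) of the means of all tested genes. The irradiated points lie above both controls for Mrc1 and Lyz2 and below them for Csf1r, Gata6 and Clec4e, and 7 of the 10 members have means under the dashed median line.

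The comparison of irradiated with control samples asked how these macrophage genes differed after whole-body irradiation of the tumour-bearing mice. The members did not move as a block. Mrc1 was 1.87-fold and Lyz2 1.48-fold higher in irradiated samples, Clec4e was 1.68-fold and Csf1r 1.43-fold lower, and the other 6 had differences between −0.235 and 0.01 on the log2 scale. None of the 10 passed limma's Benjamini-Hochberg adjusted threshold of 0.05 over all genes, which 1 gene of 19938 passed (0.00502%). At an unadjusted limma p under 0.05, 2 members were higher against 5.21% of all genes, and 2 were lower against 5.1% of all genes. With at least a 1.5-fold difference as well, 1 was higher (Mrc1, against 1.7% of all genes) and 1 lower (Clec4e, against 0.672%). These shares describe the members and support nothing by themselves, because the members were chosen with earlier results of these data known. The median difference of the 10 was −0.07 (0.075 without irradiated replicate 2) and that of all genes was −0.03. Which cells of the harvest gave these signals was not measured. A different share of macrophages or other cells, tumour cells included, and a different amount of RNA per cell cannot be told apart. The limma p-values set a difference against the spread between 2 samples per group, which eBayes draws towards the spread of all genes. An exact permutation test of 2 against 2 cannot give a two-sided p below 0.333.

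Both irradiated samples lay above both controls for 2 members, Mrc1 and Lyz2, where 17.8% of all genes showed this order, and below them for 3, Csf1r, Gata6 and Clec4e, where 23.9% did. The other 5 overlapped between groups. Among the members, 5 had a wider gap between the irradiated than between the control arrays, and 7 were higher on irradiated replicate 1 than on irradiated replicate 2. Neither share was counted over all genes, where the irradiated arrays differed more (SD 0.362) than the control arrays (0.167). The 2 counts are therefore description only.

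Among receptors for microbes and debris, Mrc1 had the largest difference. Mrc1 encodes the mannose receptor CD206, which takes up glycoproteins with terminal mannose and is a marker of alternatively activated macrophages. It measured 6.09 and 6.01 in control and 6.92 and 6.98 in irradiated samples. The irradiated pair stood well above the control pair, and the gap within each pair was at most 0.08. The difference of 0.90 on the log2 scale had a standard error of 0.11 and a 95% interval of the limma fit from 0.62 to 1.18 (unadjusted p = 0.000337, limma adjusted p = 0.201). It ranged from 0.86 to 0.94 in the 4 fits that left out 1 array each. Such a fit leaves 1 sample in a group, so its p-value takes its spread from the other group alone. The p-values of these fits, given below for other genes, are thus no even measure of stability. The share of all genes below 0.05 in every such fit was not counted.

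Clec4e showed the opposite order. It encodes Mincle, a C-type lectin that binds mycobacterial cord factor and a protein released by dead cells, and it signals through the adaptor chain FcRγ (Fcer1g), the kinase Syk and Card9. It measured 5.87 and 6.16 in control and 5.27 and 5.26 in irradiated samples. Both irradiated values lay below both controls, and the irradiated arrays differed by 0.01 only. The difference of −0.75 on the log2 scale had a standard error of 0.14 and a 95% interval from −1.1 to −0.40 (unadjusted p = 0.00233, limma adjusted p = 0.295), and in fits of 3 arrays it ran from −0.895 to −0.605 with an unadjusted p below 0.05 in each.

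The scavenger receptor Marco, which binds bacteria and particles, measured 6.04 and 5.98 in control and 6.22 and 5.82 in irradiated samples. The irradiated values fell on either side of the controls. The difference was 0.01 with a 95% interval from −0.40 to 0.42. Cd14, the co-receptor that hands lipopolysaccharide (LPS) to TLR4, measured 7.35 on both control arrays and 7.04 and 7.47 on the irradiated arrays, 1 below and 1 above. Its difference was −0.095 with a 95% interval from −0.52 to 0.33. Leaving out irradiated replicate 2 gave −0.31, and leaving out irradiated replicate 1 gave 0.12.

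Csf1r, the receptor through which macrophages receive their survival signal, was lower in irradiated samples. It measured 6.52 and 6.26 in control and 5.96 and 5.78 in irradiated samples, without overlap. The difference of −0.52 on the log2 scale had a standard error of 0.15 and a 95% interval from −0.88 to −0.16 (unadjusted p = 0.0136, limma adjusted p = 0.411). The unadjusted p was 0.126 without control replicate 1 (difference −0.39) and 0.0819 without irradiated replicate 2 (−0.43), and 0.0339 and 0.0382 without the other 2 arrays.

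Lyz2, the lysozyme of macrophages and other myeloid cells, measured 6.78 and 7.18 in control and 7.73 and 7.37 in irradiated samples. The higher control and the lower irradiated sample were 0.19 apart, and the gap within either group was 0.36 or more. The difference of 0.57 on the log2 scale had a standard error of 0.20 and a 95% interval from 0.08 to 1.06 (unadjusted p = 0.0301, limma adjusted p = 0.446). The unadjusted p was above 0.05 in 3 of the 4 fits of 3 arrays, at 0.207 without control replicate 1, 0.197 without irradiated replicate 1 and 0.0559 without irradiated replicate 2, where the differences were 0.37, 0.39 and 0.75. With the replicate number as a block it was 0.0686.

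Lyz1, the neighbouring lysozyme gene known from Paneth cells, followed the same order on its own probe set. It measured 6.15 and 6.40 in control and 6.85 and 6.70 in irradiated samples, a log2 difference of 0.50 with a standard error of 0.14 (unadjusted p = 0.0140, limma adjusted p = 0.411), with an unadjusted p below 0.05 in 2 of 4 fits of 3 arrays. Signal shared between the copies was not tested, and the promoter windows printed above do not bear on it, so Lyz2 is uncertain as a single gene. Cd68, the lysosomal membrane protein used as a pan-macrophage marker, measured 8.98 on both control arrays and 9.04 and 8.84 on the irradiated arrays. Its difference was −0.04 with a 95% interval from −0.35 to 0.27, and the control values lay between the irradiated ones.

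The 3 members that define resident peritoneal macrophages had intervals that spanned 0. Gata6, their lineage transcription factor, measured 5.41 and 5.56 in control and 5.35 and 5.39 in irradiated samples. Both irradiated values were the lower, by 0.02 at the closest, and the difference was −0.115 with a 95% interval from −0.41 to 0.18 (unadjusted p = 0.375). Timd4 measured 5.72 and 5.65 in control and 5.79 and 5.11 in irradiated samples, so irradiated replicate 2 alone was low. Its difference was −0.235 with a 95% interval from −0.82 to 0.35. It became −0.575 without irradiated replicate 1 and turned to 0.105 without irradiated replicate 2. Adgre1, whose values are given above, had a difference of 0.005 with a 95% interval from −0.31 to 0.32. The plot of differences with an array left out shows how closely Mrc1 and Clec4e kept their values and how Timd4, Cd14 and Marco crossed 0.

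**Figure D2:**
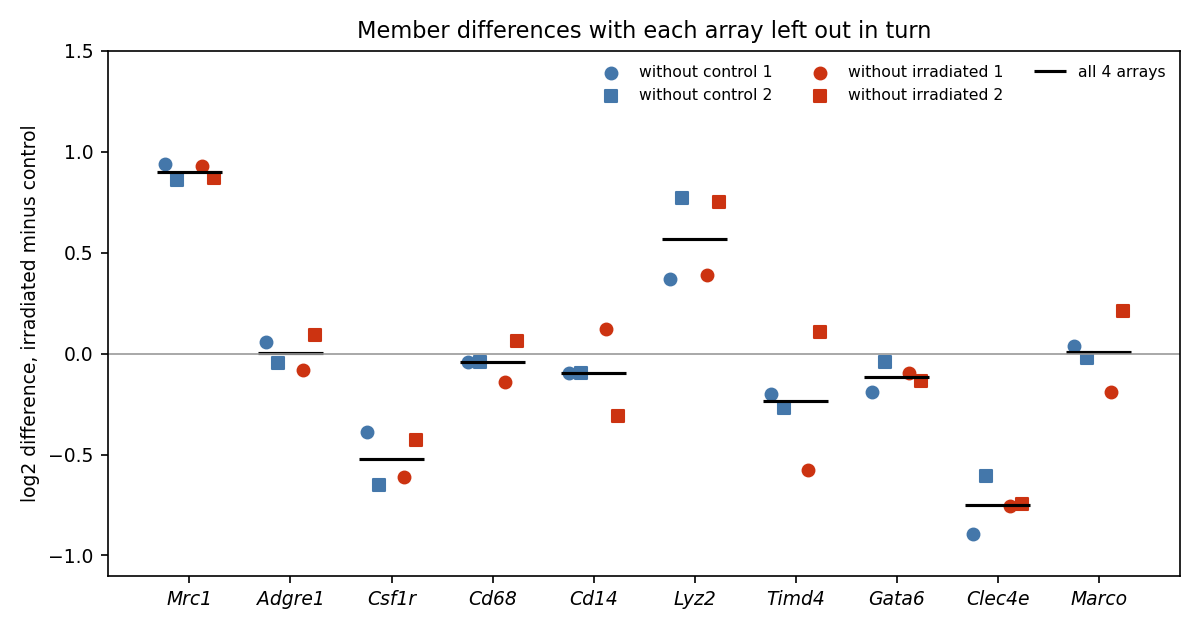
Log2 difference of each member, irradiated minus control, over all 4 arrays (black lines) and with each array left out in turn (points). Mrc1 stays between 0.86 and 0.94 and Clec4e between −0.895 and −0.605, while Adgre1, Cd68, Cd14, Timd4 and Marco have points on both sides of 0.

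The partners of the members were followed whatever their value, along with 10 lists of macrophage genes. Of the 174 measured genes of these lists other than the members, 0 passed the adjusted threshold and 31 had an unadjusted limma p under 0.05, 23 of them higher and 8 lower, where 5.21% and 5.1% of all genes were. The size of these differences depended on single arrays to unlike degrees. In the 4 fits of 3 arrays Axl ran from 0.65 to 0.78 and Cd36 from 0.69 to 0.815. Ptgs2 ran from 1.185 to 3.055 and Nos2 from 0.575 to 1.525. Of the ligands of CSF1R, Csf1 measured 7.25 and 7.24 in control and 7.75 and 8.27 in irradiated samples, opposite in order to its receptor. It differed by 0.765 on the log2 scale, with a standard error of 0.19 (unadjusted p = 0.00863, limma adjusted p = 0.375), and the unadjusted p was below 0.05 in 2 of the 4 fits of 3 arrays (0.505 without irradiated replicate 2). Il34, the other ligand, measured 6.87 and 6.77 against 6.95 and 6.31, with a difference of −0.19. Spi1, which encodes PU.1, measured 5.94 and 5.68 against 5.76 and 5.57, with a difference of −0.145. In the list of CSF1 receptor ligands and macrophage transcription factors, 20 genes other than Csf1r were measured, 11 higher and 9 lower, with a median of 0.0625. At an unadjusted p under 0.05, 2 of these were higher, Csf1 and the transcription factor Maf (0.575), and 1 was lower, Tyrobp (−0.545), the DAP12 adaptor of myeloid receptors.

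**Figure D3:**
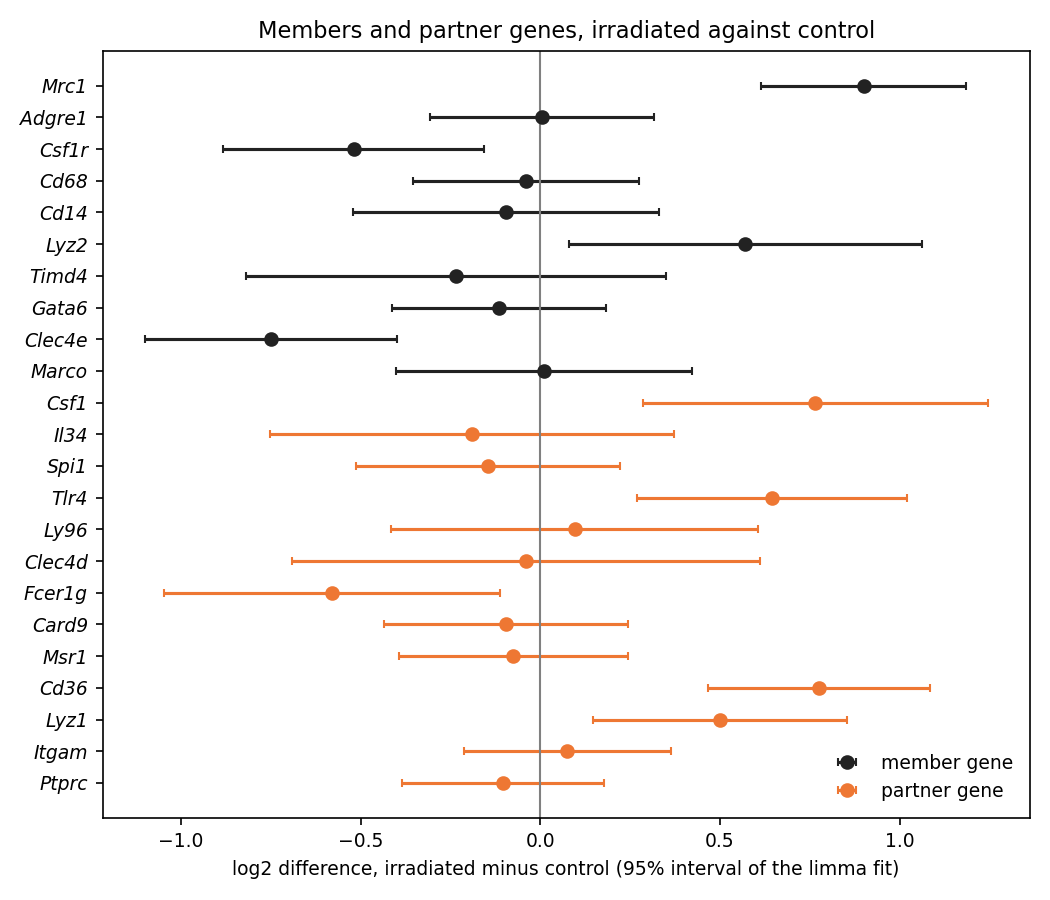
Log2 difference, irradiated minus control, with the 95% interval of the limma fit, for the 10 members (black) and 13 partner genes (orange). The intervals of Mrc1, Lyz2, Csf1, Tlr4, Cd36 and Lyz1 lie above 0, those of Csf1r, Clec4e and Fcer1g lie below it, and all others span it.

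The partners of Clec4e were mixed. Clec4d, the neighbouring lectin gene that pairs with Mincle, measured 5.75 and 5.81 in control and 5.35 and 6.13 in irradiated samples, on either side of the controls. Fcer1g, the signalling chain, measured 6.95 and 7.09 against 6.68 and 6.20, a log2 difference of −0.58 with a standard error of 0.19 (unadjusted p = 0.0236, limma adjusted p = 0.442), and the unadjusted p was below 0.05 in 1 of 4 fits of 3 arrays (−0.34 without irradiated replicate 2). Card9 measured 5.59 and 5.85 against 5.65 and 5.6 and overlapped. Of 18 genes of the Mincle cluster and its signalling other than Clec4e, 12 were higher and 6 lower with a median of 0.0625. At an unadjusted p under 0.05 they were Vav3 (0.645), a guanine nucleotide exchange factor, and Fcer1g. Most of these genes were dim, with 13 of the 18 below the median intensity.

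Tlr4, the signalling partner of CD14, measured 6.34 and 6.0 in control and 6.81 and 6.82 in irradiated samples, without overlap. It differed by 0.645 on the log2 scale, with a standard error of 0.15 (unadjusted p = 0.00632, limma adjusted p = 0.364), and the unadjusted p was below 0.05 in 1 of 4 fits of 3 arrays. Ly96, which encodes the MD-2 subunit that binds LPS, measured 11.41 and 11.64 against 11.36 and 11.88 and overlapped. Of 16 genes of the LPS receptor list other than Cd14, 7 were higher and 8 lower, with a median of −0.01. Beside Tlr4, the adaptor Ticam1 was higher by 0.57 and the adaptor Tirap lower by 0.67 at an unadjusted p under 0.05.

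Scavenger and phagocytic receptors other than the members had a median of −0.0725, with 7 of 26 higher and 19 lower. Cd36, the receptor for oxidised lipoprotein, measured 3.64 and 3.72 in control and 4.37 and 4.54 in irradiated samples, near the low end of the array's range. Axl, a receptor tyrosine kinase for apoptotic cells, measured 9.93 and 9.80 against 10.55 and 10.61. Their log2 differences of 0.775 and 0.715 had unadjusted p-values of 0.00107 and 0.00127 (limma adjusted p = 0.257 and 0.260), and both had an unadjusted p below 0.05 in all 4 fits of 3 arrays. Ly75 (0.32) was also higher and Mertk, the related receptor for apoptotic cells, was lower (−0.345) at an unadjusted p under 0.05. Msr1, the class A scavenger receptor, measured between 5.20 and 5.42 on the 4 arrays and overlapped.

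Of 18 lysosomal genes other than Cd68 and Lyz2, 13 were higher, and the median was 0.1925. At an unadjusted limma p under 0.05, 4 were higher and 0 lower, where 5.21% and 5.1% of all genes were (0 past the adjusted threshold). Grn, the precursor of the granulins, measured 11.95 and 11.85 in control and 12.51 and 12.87 in irradiated samples, a log2 difference of 0.79 (unadjusted p = 0.00312, limma adjusted p = 0.318), with an unadjusted p below 0.05 in all 4 fits of 3 arrays. The cathepsin Ctsl (0.375), Gpnmb (0.49) and the proton pump subunit Atp6v0d2 (0.42) were the other 3. Leaving out irradiated replicate 2 gave the whole lysosomal list, Cd68 and Lyz2 included, a median of 0.0725, and leaving out irradiated replicate 1 gave 0.255. These genes work in the lysosomes of most cell types, and which cells they came from was not measured.

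Genes of macrophage activation did not follow Mrc1 as a group. Of 18 genes of alternative activation other than Mrc1, 9 were higher and 9 lower with a median of 0.0075. Stat6, the transcription factor of interleukin 4 signalling, was higher by 0.50 and the chitinase-like gene Chil3 lower by 0.61 at an unadjusted p under 0.05. Arg1 and Retnla, which encode arginase 1 and a resistin-like protein of such macrophages, measured between 5.46 and 5.69 and between 4.48 and 4.71, with overlapping groups.

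Of 18 genes of classical activation, 8 were higher and 9 lower with a median of −0.005, and 6 were higher and 0 lower at an unadjusted limma p under 0.05, where 5.21% and 5.1% of all genes were (0 past the adjusted threshold). Ptgs2 (2.12), the inducible cyclooxygenase, and Nos2 (1.05), the inducible nitric oxide synthase, had the largest differences. For Ptgs2, leaving out irradiated replicate 2 gave 1.185 and leaving out irradiated replicate 1 gave 3.055, with an unadjusted p below 0.05 in 2 of 4 fits of 3 arrays. Nos2 measured 6.08 and 5.65 in control and 6.44 and 7.39 in irradiated samples, with irradiated replicate 2 the highest. The others were Cxcl10 (0.495), Irf1 (0.45), Cxcl9 (0.415) and Il23a (0.36). Without irradiated replicate 2 the difference of Nos2 was 0.575 (unadjusted p = 0.111).

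Further identity genes of tissue macrophages differed in both directions. Among 17 large peritoneal macrophage genes other than Gata6 and Timd4, 7 were higher and 10 lower, with a median of −0.065, and 15 lay below the median intensity. At an unadjusted p under 0.05, the tetraspanin Cd9 was higher (0.365) and Apoc1 lower (−0.315). Among 17 genes of small peritoneal macrophages and monocytes, 7 were higher and 10 lower with a median of −0.035, and Nr4a1 (1.08) and Cd226 (−0.29) had an unadjusted p under 0.05. Nr4a1 differed by 0.505 without irradiated replicate 1 and by 1.655 without irradiated replicate 2. Of 14 complement and apolipoprotein genes, 8 were higher and 6 lower with a median of 0.1275 (0.005 without irradiated replicate 2). In that list Cd74 (0.62) and Pf4 (0.355) were higher and the anaphylatoxin receptor C5ar1 (−0.575) was lower at an unadjusted p under 0.05.

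**Figure D4:**
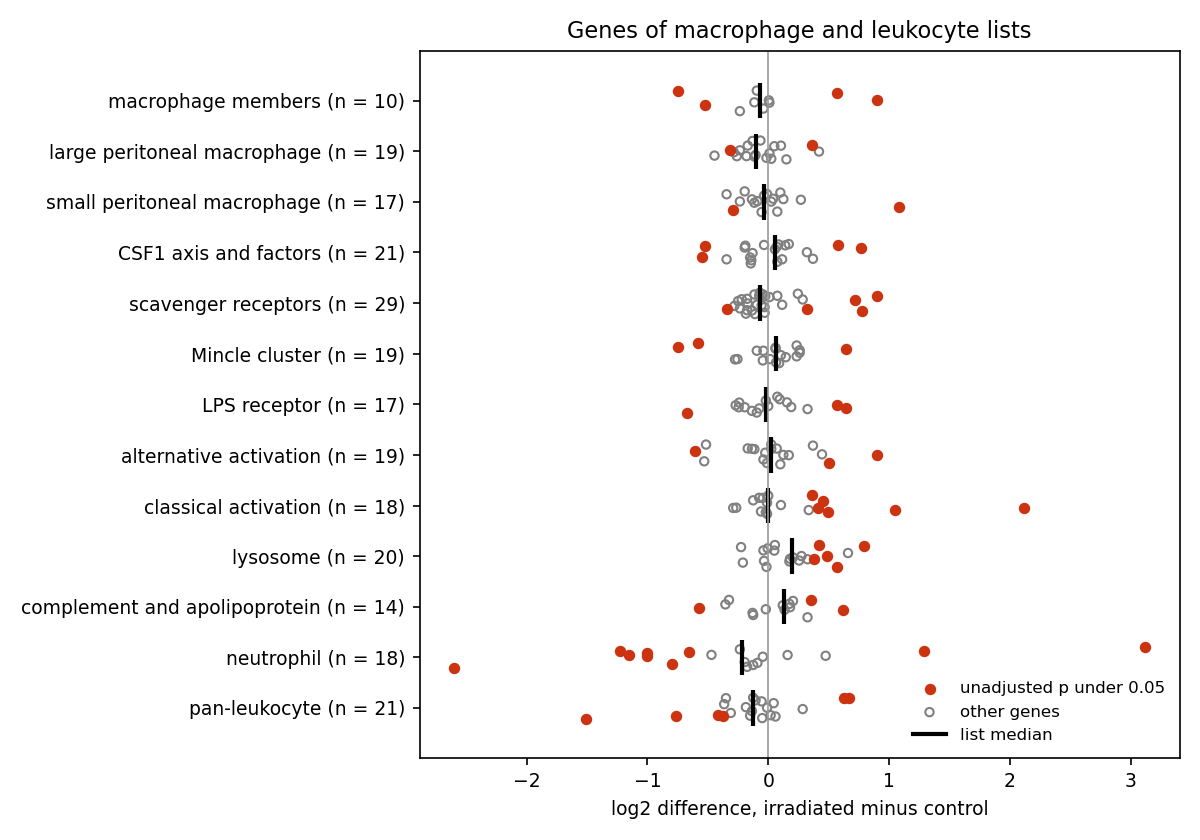
Log2 difference, irradiated minus control, of every measured gene in the members' list, 10 other macrophage lists and the neutrophil and pan-leukocyte lists, with 1 point per gene, red points for an unadjusted limma p under 0.05 and a black bar at each list's median. The members' median is −0.07, the lysosomal median 0.1925 and the neutrophil median −0.215, and most lists hold red points on both sides of 0.

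Clec4e, Csf1r, Fcer1g and Tyrobp are also expressed in other myeloid cells, and neutrophil markers differed in the same samples. Of 18 measured neutrophil genes, 4 were higher and 14 lower with a median of −0.215. At an unadjusted limma p under 0.05, 2 were higher and 7 lower, where 5.21% and 5.1% of all genes were. The 3 of the 18 at or above the median intensity of all genes had a median of 1.285. The mean level of all 18 was 6.33 and 6.45 in control and 5.98 and 6.27 in irradiated samples, and 5 of the 18 lay below the 25th percentile of intensity. Lcn2, 1 of the 3 brighter genes, weighs on these means. It differed by 2.145 without irradiated replicate 1 and by −2.325 without irradiated replicate 2. The median difference from the control mean was −0.2775 on irradiated replicate 1 and −0.3425 on irradiated replicate 2. Retnlg measured 7.19 and 7.85 against 5.12 and 4.72, a log2 difference of −2.60, and S100a9 differed by −1.0. Ly6g went the other way, with 8.87 and 8.82 in control and 12.04 and 11.89 in irradiated samples, and was the 1 gene past the adjusted threshold (limma adjusted p = 0.0117).

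The pan-leukocyte list behaved in the same mixed way, with 6 of 21 higher, 15 lower, a median of −0.125 and mean levels of 6.82 and 6.90 in control and 6.79 and 6.63 in irradiated samples. At an unadjusted p under 0.05, 4 were lower, led by the granule proteoglycan Srgn (−1.505) and the surface peptide Cd52 (−0.76), and 2 were higher, the actin-bundling protein gene Lcp1 (0.625) and Arhgdib (0.67). Of all genes, 5.1% were lower and 5.21% higher at that threshold. Ptprc, printed above, had a difference of −0.105, and Itgam, the CD11b integrin of macrophages and neutrophils, measured 5.82 and 5.78 against 5.82 and 5.93. The part of these cells in the differences of the members was not tested.

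Profiles over the 4 arrays, each centred on its own mean, were compared by Euclidean distance to find the 3 genes most like each of the members with the largest differences. Nearest to Mrc1 were Spag5 (distance 0.0539), Rasa3 (0.0572) and Cda (0.0817), with log2 differences of 0.85, 0.945 and 0.935. Nearest to Clec4e were Csf3r (0.114), which encodes the receptor for granulocyte colony-stimulating factor, Defa39 (0.114) and Fam126b (0.171), with differences of −0.66, −0.74 and −0.75. This describes likeness over 4 arrays only.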

How the data were processed

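The authors deposited 1 table of log2 probe set intensities for 4 arrays (2 decimals), made with RMA per the submitters' processing notes, from 300 ng of RNA per sample per the labels' protocols. RMA's version, the genome build and scan batches were not stated. RMA gives the arrays a common distribution, which hides a shift of the whole transcriptome and compresses the folds of dim probe sets. The table held 0 columns of other samples.

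Gene names came from the platform's annotation, with symbols updated through Entrez identifiers (RefSeq, GRCm38.p6). Of 35556 probe sets, 21789 had 1 symbol, 1621 several and 12146 none listed, and the brightest single-symbol probe set of a gene was kept, which left 19938 genes. The test was limma 3.58.1 in R 4.3.3 (a linear model with eBayes, two-sided, 2 residual and 3.48 prior degrees of freedom) with Benjamini-Hochberg adjustment. The fit was first run on simulated data with the same spread in both groups. The real irradiated arrays differed more from each other (SD 0.362) than the control arrays did (0.167), so that run does not give the error rate here.

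The members, the 18 other lists (288 of 306 genes matched, members included) and the rules were chosen with earlier results of these data known. Named genes were the members, their partners and up to 5 genes per list with the smallest p. Beyond these, Il23a, Arg1 and Retnla were named after their values were seen. No set test was run. Replicate numbers share no stated origin and were not used as a block. Alternatives covered filters, normalization, probe set choice, the block, eBayes settings and each array left out.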

Additional observations from a re-analysis of the deposited data

Results flagged for a closer look

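One probe set outside the main comparison, which lists both Ly6c2 and Ly6c1, drew attention because its signal in irradiated samples exceeded the control level. Ly6c is a surface antigen of inflammatory monocytes, the precursors of small peritoneal macrophages, and of other cells. The probe set measured 10.26 and 10.30 in control and 12.15 and 12.09 in irradiated samples, a log2 difference of 1.84 (limma adjusted p = 0.0450 over 23410 annotated probe sets). The other probe set of the same pair differed by 1.83 without passing (limma adjusted p = 0.216). In fits of 3 arrays the difference of the first ran from 1.81 to 1.87, and its limma adjusted p was 0.998 without control replicate 1, 0.997 without control replicate 2, 0.113 without irradiated replicate 1 and 0.318 without irradiated replicate 2. Signal shared with other Ly6 genes was not tested.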

How the results depend on the processing

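Mrc1 and Clec4e kept their direction and an unadjusted p below 0.05 in each of the 13 alternatives that measured them, with differences from 0.86 to 0.95 and from −0.895 to −0.605 and limma adjusted p-values from 0.123 to 0.998 and from 0.141 to 0.998. Csf1r kept its direction in 13 of 13 (unadjusted p below 0.05 in 11) and Lyz2 in 14 of 14 (in 10), and no member passed the adjusted threshold in any alternative. The filters, probe set choice, the block and the eBayes settings cannot change the difference of a member with 1 probe set. Only the normalizations and the arrays left out could turn a direction, so these tallies are in part fixed in advance. Requiring a 1.5-fold difference left 339 genes higher and 134 lower, with 1 member in each direction. Among genes at or above the median intensity 1 member was higher and 0 were lower, because this filter removed Mrc1, Clec4e and Csf1r. The limma fit of every annotated probe set gave 6 past the adjusted threshold. The replicate block gave 0 genes past it in limma and 1 member higher at an unadjusted p under 0.05; the deviations of same-numbered arrays correlated with r = 0.0676 across genes, and no label ties the numbers. With 1 array left out the genes past the adjusted threshold numbered 0 in each fit, genes higher at an unadjusted p under 0.05 ran from 244 to 2588 and lower from 137 to 3336, members higher from 1 to 2 and lower from 1 to 3, and the members' median from −0.1175 to 0.075. The direction turned for Adgre1 with quantile normalization (−0.049) and cyclic loess (−0.022), and for members near 0 in fits of 3 arrays, which ran from −0.08 to 0.09 for Adgre1, −0.19 to 0.21 for Marco, −0.31 to 0.12 for Cd14, −0.14 to 0.06 for Cd68 and −0.575 to 0.105 for Timd4; the cause was not tested. Of 250 list medians over the alternatives, 205 moved by less than the SD of the list's mean level between arrays of a group. That SD is not a spread of the median difference. The block and the eBayes settings cannot move a median, so part of the 205 was fixed in advance. The number of arrays limits the precision, and 7 of the 10 members lay below the median intensity.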

Other observations

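Markers of other leukocytes that ascites could hold were measured as well. Of 13 measured mast cell and eosinophil markers, 13 lay below the median intensity, and 0 had an unadjusted limma p under 0.05. Of 14 dendritic cell markers, 7 were higher and 7 lower with a median of −0.0225, and Flt3, the growth factor receptor of dendritic cell precursors, was higher by 0.37 at an unadjusted p under 0.05 beside Cd74. Among 12 T cell markers, 3 were higher and 9 lower with a median of −0.1275, and the interleukin 7 receptor gene Il7r was higher by 0.63 (unadjusted p = 0.0082, limma adjusted p = 0.373). Of 11 B cell markers, 5 were higher and 5 lower with a median of 0, and 0 had an unadjusted limma p under 0.05.

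Of 11 mesothelial markers, which the lining of the cavity would add, 5 were higher and 6 lower with a median of −0.1. That median was −0.475 among genes at or above the 25th percentile of intensity, −0.6 among those at or above the median, and 0.03 without irradiated replicate 2. The keratins Krt18 (−0.60) and Krt19 (−0.865) were lower and Muc16 (0.485) higher at an unadjusted p under 0.05, and the keratins are shared with other epithelia. Krt19 differed by −0.325 without irradiated replicate 2 and by −1.405 without irradiated replicate 1, with an unadjusted p below 0.05 in 2 of 4 fits of 3 arrays. The mean level of the list was 7.77 and 7.80 in control and 7.77 and 7.43 in irradiated samples, so irradiated replicate 2 was the low one. Of 15 trophoblast and epithelial markers, a list that shares keratins with the mesothelial one, 7 were higher and 8 lower. Their median difference was −0.09, and against the control mean it was −0.075 on irradiated replicate 1 and −0.23 on irradiated replicate 2. Their mean level was 8.78 and 8.72 in control and 8.91 and 9.24 in irradiated samples, and 4 lay below the median intensity. Prl8a9 weighs on the last mean. It differed by 6.705 without irradiated replicate 1 and by 0.445 without irradiated replicate 2. At an unadjusted limma p under 0.05, 4 were higher and 4 lower, where 5.21% and 5.1% of all genes were. The cells that gave these signals were not measured.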
